A study of Mus musculus with 11 samples.

Results

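The hypothalamic neuropeptides described here were 7 genes: Avp, Oxt, Hcrt, Pomc, Trh, Gal and Npy. Every probe set whose annotation named 1 of these symbols alone was taken, which gave 8 of the 12488 probe sets on the array and 7 of the 8252 genes named on it. Gal had 2 probe sets and the other genes had 1 each. Signals were read on Affymetrix arrays from whole brain, with 1 array for each of 11 C57BL/6J mice, all untreated. The 6 wild-type mice comprised 4 males and 2 females. The series describes its controls as littermates, but the sample labels do not say which mice shared a litter. The 5 null mice were deficient in the nicotinic receptor subunit β4 and comprised 2 males and 3 females. Ages ran from 6 to 9 weeks. Wild-type mice 1, 2 and 3 were 9, 8 and 7 weeks old and had animal numbers starting with B4, like all null mice. Wild-type mice 4, 5 and 6 were 6 weeks old and had numbers starting with LT, so these letters and this age occurred in wild-type mice only. Null mice 1 and 2 were 9 weeks old, null mouse 3 was 7 weeks old, and null mice 4 and 5 were 8 weeks old. Mice 1, 2, 4 and 6 of the wild-type group and mice 1 and 2 of the null group were male. The sources used here do not describe the deleted part of the gene, and no probe set is annotated to the targeted subunit alone, so the genotype labels were not checked on it.

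Neuropeptides are made as long precursors, cut by prohormone convertases in secretory granules and released to act on G protein-coupled receptors. Vasopressin (Avp) and oxytocin (Oxt) come from large neurons of the paraventricular and supraoptic nuclei that project to the posterior pituitary. Orexin (Hcrt) neurons of the lateral hypothalamus promote wakefulness, proopiomelanocortin (Pomc) and neuropeptide Y (Npy) neurons of the arcuate nucleus oppose each other in feeding, and thyrotropin-releasing hormone (Trh) drives the thyroid axis. Galanin (Gal) is made in several hypothalamic nuclei, and Npy is also made widely in the forebrain. In whole-brain RNA a change in the number of cells and a change in the RNA of each cell cannot be told apart.

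The 2 male null arrays stood apart from the rest. On the first principal component, with 39.7% of the variance, they lay at 47.2 and 49.2 while the other 9 arrays lay between -16.3 and -2.03. Their ratio of the 3′ to the 5′ Gapdh control probe sets, which reflects the length of the labelled RNA, was 0.859 and 0.798. Wild-type arrays had a mean ratio of 4.24 ± 0.862 (SD, n = 6), and null arrays had 2.04 ± 1.21 (SD, n = 5), which differed (exact permutation test, two-sided, p = 0.00866). The null females had ratios of 2.75, 2.19 and 3.58, against 3.57 to 5.92 in the wild-type arrays. Leaving out the 2 male null arrays therefore does not make this ratio alike between the genotypes. The part of RNA quality in any result was not tested. The genotype and sex differences of the members are also given without these 2 arrays, while an interaction cannot be fitted without them. The 3 arrays of LT-numbered mice stood apart on the ratio of the spiked-in controls BioB and BioC, at 1.07 ± 0.0544 (SD, n = 3) against 0.437 ± 0.0491 (SD, n = 8) for B4-numbered mice (exact permutation p = 0.0121). LT letters, age and this ratio cannot be told apart, and some members are also given within B4 mice. Markers of brain cells were present, with the neuronal gene Snap25 at 4720 to 7460 and the oligodendrocyte gene Mbp at 1624 to 3441. The neuronal gene Syt1 read 1291 and 1567 in the male null arrays against 138.8 to 414.6 elsewhere, and Snap25 read 5326 and 4720 against 5215 to 7460. For the interaction limma called 3 of 4 neuronal genes tested, against 15.9% of all probe sets. They were Syt1 (-1.96), Eno2 (-1.43) and Nefl (-1.06), while Snap25 had 0.45 (limma adjusted p = 0.148). It also called Mag (-1.55) among 4 oligodendrocyte genes, Nptx1 (-1.34) among 4 of cortex and hippocampus and Ttr (1.23) among 3 of choroid plexus. In the first 2 of these lists Mobp (0.26) and Nrgn (1.15) had the opposite sign, and the cortex and hippocampus median was 0.61. Limma called 0 of 5 astrocyte, 0 of 6 cerebellar, 0 of 2 blood, 0 of 1 olfactory bulb and 0 of 1 striatal genes. The part of cell makeup in the members' values was not tested. The 7 brightest probe sets of the members were among the 7453 that passed the filter on low signal, and p-values were adjusted over those 7453.

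Vasopressin signal was lower in the female than in the male brains, although the difference did not pass the adjusted threshold. Avp read 425.3, 146.6, 324.2 and 207.3 in the wild-type males and 429.9 and 330.8 in the null males. It read 71.2 and 194.4 in the wild-type females and 150.8, 129.1 and 127.6 in the null females. The sexes overlapped through wild-type male 2, whose 146.6 lay below wild-type female 5 and null female 3, and the other 5 males were above all 5 females. In descending order, null males averaged 380.4 ± 70.1 (SD, n = 2), wild-type males 276 ± 124 (SD, n = 4), null females 136 ± 13.0 (SD, n = 3) and wild-type females 133 ± 87.1 (SD, n = 2). The last 2 did not differ beyond their spread, and neither did the first 2.

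With genotype in the model, Avp was lower in females by a log2 difference of -1.29 (SE 0.30, 95% confidence interval -1.92 to -0.65), a factor of 2.44. Its unadjusted p was 0.000737 and its limma adjusted p was 0.261. Of the 7453 probe sets, 0.644% had a larger absolute sex difference, and Avp ranked 15 by p. Within wild-type mice the difference was -1.11 (unadjusted p = 0.0169, limma adjusted p = 0.453). Within null mice it was -1.48 and passed (limma adjusted p = 0.0266), in a comparison where 22.3% of all probe sets passed and which rests on the 2 male null arrays. Without those arrays the difference was -1.11 (limma adjusted p = 0.549), and in the 8 mice with B4 numbers it was -1.60 (limma adjusted p = 0.061). Leaving out wild-type female 5, the female with the highest signal, gave -1.62 and a limma adjusted p of 0.0258, a setting in which 30 probe sets passed in place of 0. The genotype difference of Avp was 0.40 (SE 0.30, limma adjusted p = 0.432), with null and wild-type arrays overlapping over most of their range. In B4 mice this genotype difference was 0.74 (SE 0.29, limma adjusted p = 0.154), with an unadjusted p under 0.05.

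**Figure D1:**
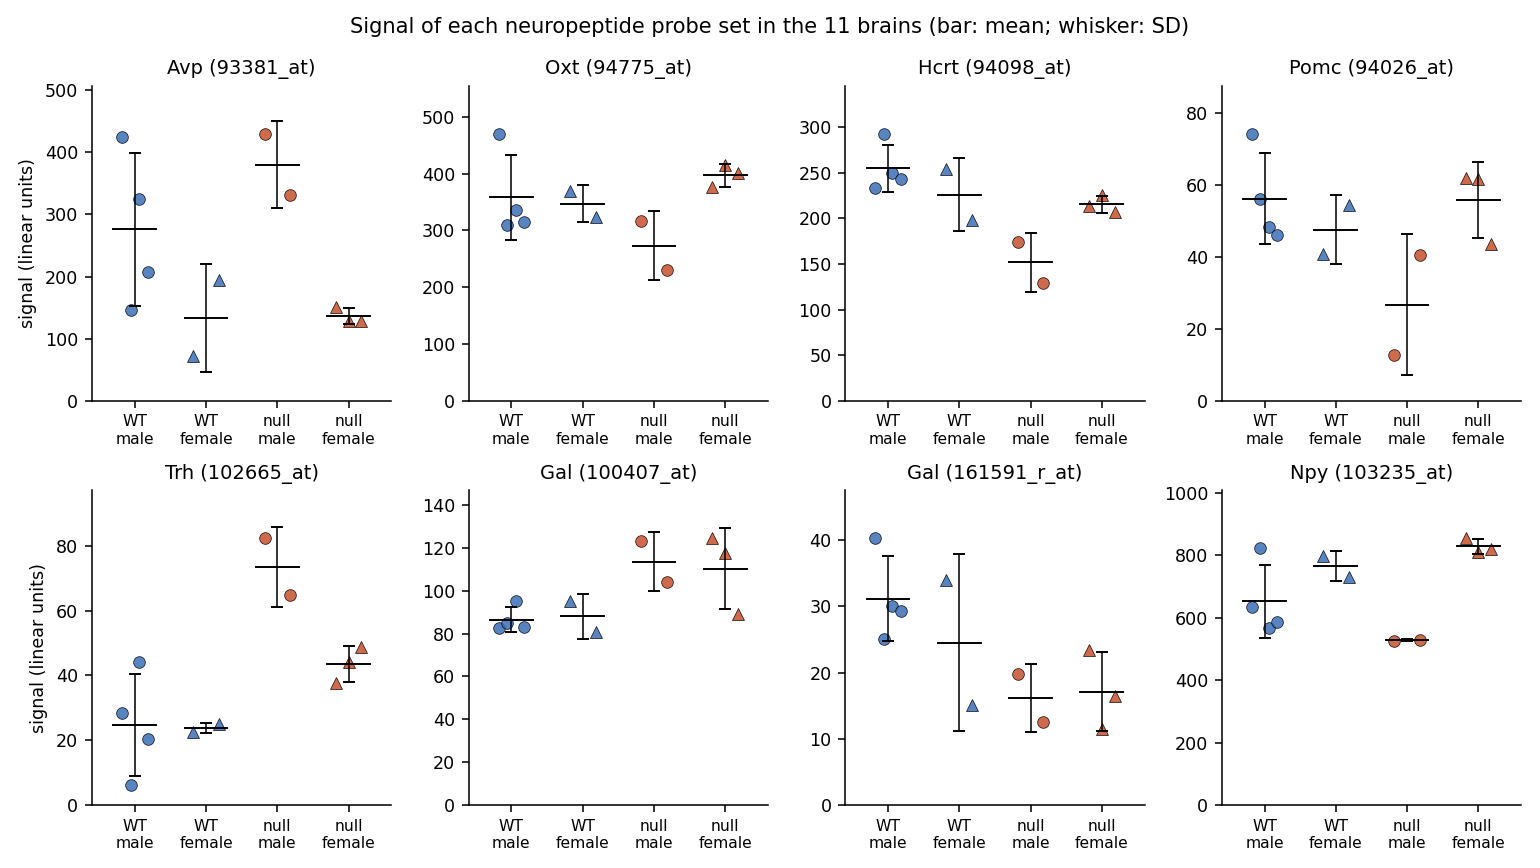
Signal of each of the 8 member probe sets on each of the 11 arrays, in arbitrary linear units, with arrays grouped by genotype and sex, the bar at the group mean and whiskers of 1 SD. Avp is low in females apart from an overlap at wild-type male 2 (146.6), and Trh is at 82.2 and 64.8 in the male null arrays.

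Oxytocin lies next to vasopressin in the genome and did not share its pattern over the arrays. The upstream 250 bases of both are shown because the 2 neighbouring genes differed in their sex difference. They were taken from RefSeq (GRCm38.p6), where all 7 members matched by symbol. Avp is at chr2:130582589-130582838 on the minus strand and Oxt at chr2:130575919-130576168 on the plus strand. Capitals mark matches on either strand to any of the 5 motifs searched, namely the TATA box core TATAA, its variant ATAAA, the E-box CACGTG, the cAMP response element core TGACG and the nuclear receptor core TGACC. The motif TATAA and its variant overlap where TATAAA is spelled.
Avp: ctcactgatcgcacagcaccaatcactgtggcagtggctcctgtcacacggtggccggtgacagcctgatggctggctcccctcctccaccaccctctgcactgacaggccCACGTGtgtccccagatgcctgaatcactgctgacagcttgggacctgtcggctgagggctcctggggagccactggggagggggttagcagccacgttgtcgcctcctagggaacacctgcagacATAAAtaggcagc
Oxt: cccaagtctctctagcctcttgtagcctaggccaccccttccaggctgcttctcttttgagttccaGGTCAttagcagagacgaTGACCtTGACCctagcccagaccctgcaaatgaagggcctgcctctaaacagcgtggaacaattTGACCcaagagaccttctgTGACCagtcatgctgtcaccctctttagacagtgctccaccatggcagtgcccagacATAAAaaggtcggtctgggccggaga
Both upstream stretches held ATAAA, which 37.3% of 32851 mouse promoters of this length hold. Avp held CACGTG, the letters bound by basic helix-loop-helix factors such as the circadian clock proteins, from 139 to 134 bases upstream of the start, and 6.02% of promoters hold it. The other 6 members held no CACGTG in this window. Oxt held TGACC at 5 places, 4 on the plus strand and 1 on the minus strand. Of all promoters 35.2% hold TGACC at least at 1 place, and 4 of the 7 members did. A match describes letters only.

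Oxt read 469.8, 309.9, 336.3 and 315.4 in wild-type males and 369.6 and 324.2 in wild-type females. It read 316.0 and 230.1 in null males and 375.5, 415.2 and 400.9 in null females. The male null arrays included the lowest value and wild-type male 1 the highest. Null and wild-type arrays overlapped, as did female and male arrays, while the 3 null females lay above both wild-type females and both null males. The sex difference was 0.25 (SE 0.16, limma adjusted p = 0.542) and turned to -0.03 without the male null arrays. The genotype difference was -0.11 (SE 0.16, limma adjusted p = 0.708), and it was 0.20 without the male null arrays. Over the 9 other arrays, the log2 signals of Avp and Oxt had a Pearson r of 0.135 and a Spearman rho of -0.05 (exact permutation p = 0.727 for r, adjusted p = 0.953 over 21 pairs). This r was 0.558 within the 6 of these arrays with B4 numbers, and -0.517 without the 2 arrays farthest from the median of Avp.

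Orexin, the wake-promoting peptide, was lower in null males than in wild-type males. Hcrt read 233.4, 292.7, 250.2 and 243.2 in wild-type males and 174.5 and 128.7 in null males. It read 254.4 and 197.7 in wild-type females and 213.5, 225.3 and 207.1 in null females. Both null males were below every other array, while the female arrays of the 2 genotypes overlapped. The genotype difference was -0.43 (SE 0.16, 95% confidence interval -0.78 to -0.08, unadjusted p = 0.0199, limma adjusted p = 0.152). It was -0.76 in males, which passed (limma adjusted p = 0.00482) where 32.6% of all probe sets passed, and -0.06 in females (limma adjusted p = 0.995). The difference between those 2 values was 0.70 (SE 0.25, unadjusted p = 0.0148, limma adjusted p = 0.0742). Without the male null arrays the genotype difference was -0.06, and with the Gapdh ratio as a covariate it was -0.01. In B4 mice the genotype difference was -0.56 (SE 0.18, limma adjusted p = 0.102). Leaving out wild-type female 5, the wild-type array with the lowest Hcrt signal, gave -0.57 with a limma adjusted p of 0.0383, in a setting where 877 probe sets passed in place of 2.

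Proopiomelanocortin, the precursor of the melanocortins and of beta-endorphin, varied most through 1 null array. Pomc read 74.3, 56.3, 48.4 and 46.2 in wild-type males and 40.9 and 54.4 in wild-type females. It read 12.8 and 40.7 in null males and 62.0, 61.8 and 43.6 in null females. Null male 1, at 12.8, was far below the other 10 arrays, and the remaining arrays of both genotypes overlapped. The genotype difference was -0.57 (SE 0.35, limma adjusted p = 0.345), and it was -0.04 without null male 1. In males it was -1.28 and passed (limma adjusted p = 0.0286) where 32.6% of all probe sets passed. In females it was 0.22 (limma adjusted p = 0.995). The difference between the sexes in the genotype effect was 1.50 (SE 0.59, unadjusted p = 0.0240, limma adjusted p = 0.101). It passed without null male 2 (2.33, limma adjusted p = 0.0242), which leaves null male 1 as the only null male, and was 0.67 without null male 1. The sex difference of Pomc was 0.48 (limma adjusted p = 0.576) and was 0.01 without null male 1.

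Thyrotropin-releasing hormone had the largest genotype difference of the 7 members. Trh read 28.4, 6.1, 44.0 and 20.3 in wild-type males and 22.6 and 24.9 in wild-type females. It read 82.2 and 64.8 in null males and 37.7, 44.2 and 48.8 in null females. Every null array was above 5 of the 6 wild-type arrays, and the overlap came from wild-type male 4 at 44.0, which was above null female 3 and just below null female 4. Null arrays averaged 55.5 ± 17.9 (SD, n = 5), and wild-type arrays averaged 24.4 ± 12.3 (SD, n = 6). By group, null males averaged 73.5 ± 12.3 (SD, n = 2), null females 43.6 ± 5.58 (SD, n = 3), wild-type males 24.7 ± 15.8 (SD, n = 4) and wild-type females 23.8 ± 1.63 (SD, n = 2). The last 2 means differed by less than their spread.

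Fitted with sex in the model, the Trh genotype difference was 1.40 (SE 0.44, 95% confidence interval 0.45 to 2.35), a 2.64-fold higher value in null mice. Its unadjusted p was 0.0070 and its limma adjusted p was 0.109, so it did not pass, and 0.939% of all probe sets had a larger absolute difference. The wild-type mean of 24.4 lay under the filter on low signal, which stood at 25.8, so Trh was tested through its null arrays. Without that filter the limma adjusted p of the genotype difference was 0.222. Within males the value was 1.88 and passed (limma adjusted p = 0.0274) where 32.6% of all probe sets passed. Within females it was 0.87 (limma adjusted p = 0.995, SE 0.62). Both values were fitted with that filter, so the same limit holds for them. The difference between the sexes in the Trh genotype difference was -1.01 (SE 0.86, limma adjusted p = 0.458). Without the male null arrays the genotype difference was 0.87 (limma adjusted p = 0.999), in B4 mice it was 1.81 (limma adjusted p = 0.0879), and leaving out each mouse in turn kept it between 1.09 and 1.57. The log2 scale weighs the wild-type male 2 value of 6.1, which is the lowest of all 11.

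The upstream 250 bases of Trh, at chr6:92244651-92244900 on the minus strand, are shown because Trh had that largest difference. Those of Npy, at chr6:49822460-49822709 on the plus strand, are shown because Npy had the other sex difference with an unadjusted p under 0.05, in the direction opposite to Avp. Capitals mark the same motif matches.
Trh: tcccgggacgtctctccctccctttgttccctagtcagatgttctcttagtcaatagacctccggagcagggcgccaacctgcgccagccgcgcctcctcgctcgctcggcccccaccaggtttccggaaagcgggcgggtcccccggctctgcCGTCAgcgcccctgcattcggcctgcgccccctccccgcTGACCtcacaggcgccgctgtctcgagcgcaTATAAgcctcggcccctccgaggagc
Npy: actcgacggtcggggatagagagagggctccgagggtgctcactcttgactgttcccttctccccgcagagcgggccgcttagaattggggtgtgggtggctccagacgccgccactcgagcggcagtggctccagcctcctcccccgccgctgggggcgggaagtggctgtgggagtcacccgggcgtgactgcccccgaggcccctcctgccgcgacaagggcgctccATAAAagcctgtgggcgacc
Trh held TATAA from 26 to 22 bases upstream, a motif in 22.8% of promoters. It also held TGACG on the minus strand from 96 to 92 bases upstream, a motif in 17.8% of promoters, and TGACC from 57 to 53 bases upstream. Npy held ATAAA from 20 to 16 bases upstream and none of the other 4 motifs. Over the 7 members TATAA was found in 3 and ATAAA in 5.

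Galanin, an inhibitory peptide of several hypothalamic nuclei, gave opposite values from its 2 probe sets. The brighter probe set read 82.8, 84.8, 95.3 and 83.1 in wild-type males and 95.4 and 80.7 in wild-type females. It read 123.1 and 103.8 in null males and 124.3, 117.6 and 89.0 in null females. All null arrays except null female 5, at 89.0, were above all wild-type arrays. The genotype difference was 0.35 (SE 0.15, 95% confidence interval 0.04 to 0.67, unadjusted p = 0.0298, limma adjusted p = 0.177). It was 0.39 in males and 0.32 in females, and 0.32 (limma adjusted p = 0.999) without the male null arrays. In B4 mice the unadjusted limma p of this genotype difference was not under 0.05.

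The dimmer probe set of Gal had a mean log2 signal under the filter and was not tested in the main model. It read 40.2, 25.0, 30.0 and 29.3 in wild-type males and 33.9 and 15.1 in wild-type females. It read 19.8 and 12.6 in null males and 23.4, 11.5 and 16.4 in null females. Here the null arrays were the lower ones, apart from wild-type female 5 at 15.1, which lay below null arrays 1, 3 and 5. Tested without the filter on low signal, its genotype difference was -0.72 (SE 0.32, unadjusted p = 0.0452, limma adjusted p = 0.284). When the male null arrays were left out as well, it was -0.46 (SE 0.46). Over the 9 arrays other than the male null ones, the log2 signals of the 2 probe sets had a Pearson r of -0.32 and a Spearman rho of -0.167 (exact permutation p = 0.397 for r). The 2 probe sets thus gave Gal opposite directions between genotypes.

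Neuropeptide Y, the appetite-stimulating peptide of the arcuate nucleus, was higher in females than in males without passing the threshold. Npy read 633.3, 823.0, 568.1 and 586.4 in wild-type males and 526.2 and 530.4 in null males. It read 799.4 and 730.9 in wild-type females and 853.9, 812.1 and 818.8 in null females. The sexes overlapped only through wild-type male 2, whose 823.0 lay above 4 of the 5 females. Females averaged 803 ± 45.1 (SD, n = 5), and males averaged 611 ± 111 (SD, n = 6). By group, null females averaged 828 ± 22.5 (SD, n = 3), wild-type females 765 ± 48.4 (SD, n = 2), wild-type males 653 ± 117 (SD, n = 4) and null males 528 ± 2.97 (SD, n = 2). The wild-type males overlapped the females, and the null males lay below every other array.

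The sex difference of Npy was 0.44 (SE 0.13, 95% confidence interval 0.16 to 0.72, unadjusted p = 0.00497, limma adjusted p = 0.292), a factor of 1.35. It was 0.24 in wild-type mice (limma adjusted p = 0.589) and 0.65 in null mice. The latter passed (limma adjusted p = 0.0116) where 22.3% of all probe sets passed. Without the male null arrays it was 0.24 (limma adjusted p = 0.658). The genotype difference of Npy was -0.10 (SE 0.13, limma adjusted p = 0.670) and was 0.12 without the male null arrays.

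**Figure D2:**
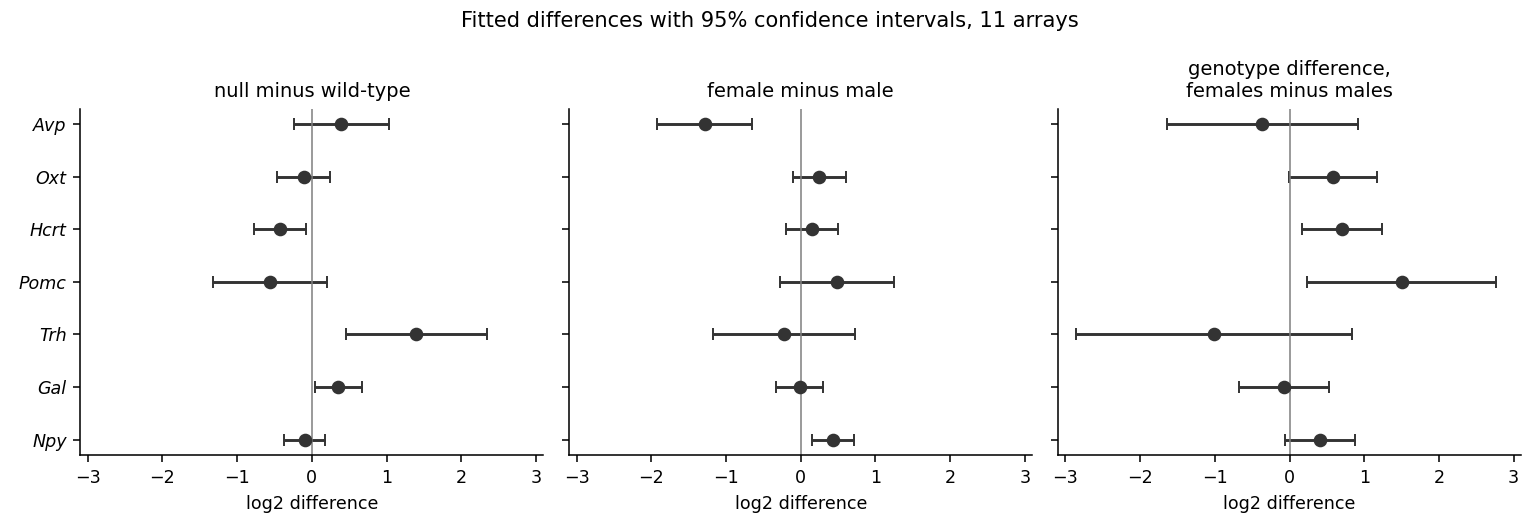
Fitted log2 differences of the 7 members with 95% confidence intervals for the genotype difference (null minus wild-type), the sex difference (female minus male) and their interaction (the female genotype effect minus the male one). The intervals of Hcrt, Trh and Gal for genotype, of Avp and Npy for sex and of Hcrt and Pomc for the interaction do not reach 0.

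In none of the 3 contrasts did a member pass an adjusted p of 0.05. For genotype, limma called 0 of 7 members against 0.0268% of all probe sets, and 3 of 7 (Hcrt, Trh and Gal) had an unadjusted p under 0.05 against 23.1% of all probe sets. Trh and Gal were among the 13.4% that were higher in null arrays, and Hcrt was among the 9.69% that were lower. Trh passed the filter on low signal through its null arrays. Gal is counted through its brighter probe set, and its dimmer probe set was lower in null arrays. For sex, limma called 0 of 7 against 0.0% of all, and 2 of 7 (Avp and Npy) had an unadjusted p under 0.05 against 12.4%. Avp was among the 7.54% lower in females and Npy among the 4.88% higher. For the interaction, limma called 0 of 7 against 15.9%, and 2 of 7 (Hcrt and Pomc) had an unadjusted p under 0.05 against 30.9%, a share near that of the members. No member had arrays that did not overlap between genotypes, against 1.09% of all probe sets, or between sexes, against 0.403%.

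Split by sex, 3 of 7 members (Hcrt, Pomc and Trh) passed between null and wild-type males, a share near the 32.6% of all probe sets that passed there. Trh is among them although it was tested only through its null arrays. Between null and wild-type females limma called 0 of 7 members and 0.0% of all probe sets. Between female and male null mice 3 of 7 (Avp, Pomc and Npy) passed, against 22.3% of all probe sets. Between female and male wild-type mice limma called 0 of 7, against 0.0% of all, with Avp alone under an unadjusted p of 0.05. Every member that passed did so in a comparison that used the 2 male null arrays. Without them no member had an unadjusted p under 0.05 for genotype, against 3.54% of all probe sets, and Avp alone did for sex, against 8.88%.

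**Figure D3:**
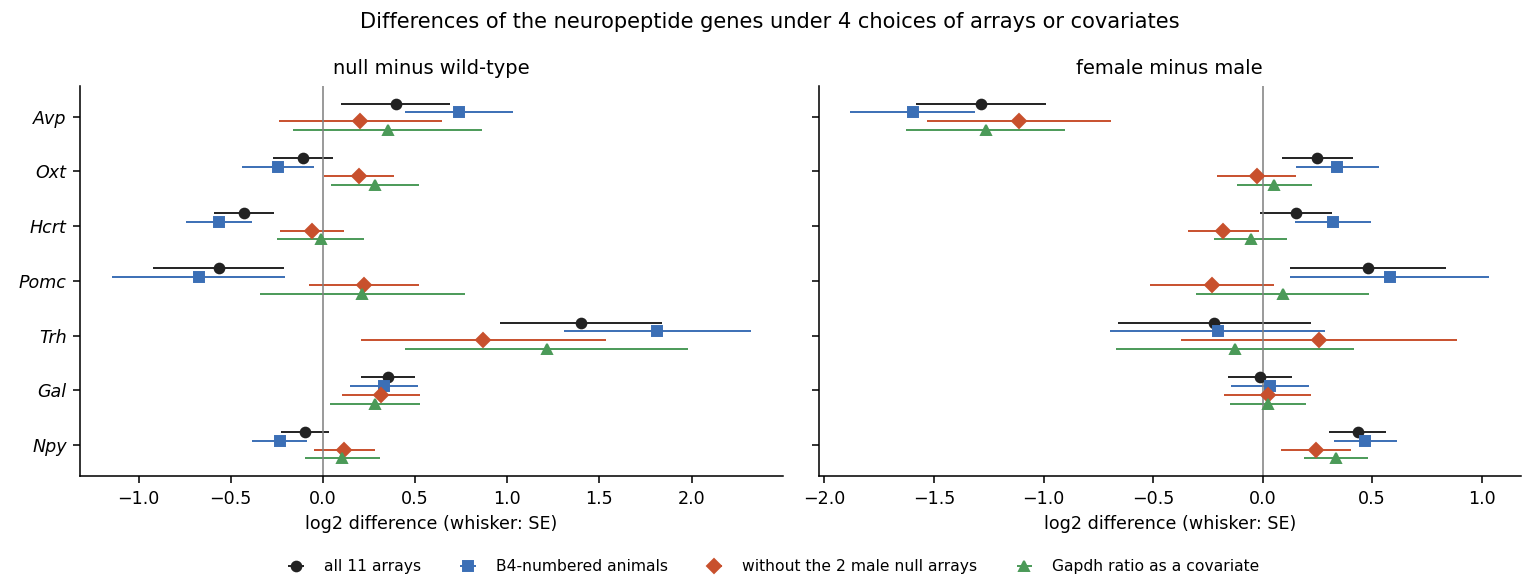
Genotype and sex differences of the 7 members (log2) with all 11 arrays, with B4-numbered mice only, without the 2 male null arrays, and with the Gapdh ratio as a covariate. Whiskers are 1 SE. For genotype, Avp, Trh and the brighter Gal probe set lie above 0 and Hcrt below 0 in all 4, while Oxt, Pomc and Npy cross 0. Hcrt is at -0.06 (SE 0.17) without the male null arrays and at -0.01 (SE 0.24) with the Gapdh ratio. There Hcrt and Avp lie within 1 SE of 0. The dimmer Gal probe set, which had the opposite direction, is not drawn. For sex, Avp stays below 0 and Npy above 0 in all 4.

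The members were then set against each other over the 9 arrays that exclude the male null ones, in 21 pairs. No pair passed after adjustment (lowest adjusted p = 0.325 for Pearson r), and 2 pairs had an unadjusted exact permutation p under 0.05 for Pearson r. Neither of these was under 0.05 for Spearman rho. Oxt and Trh were, with a rho of 0.717 (exact permutation p = 0.0369, adjusted p = 0.744) and a Pearson r of 0.546 (exact permutation p = 0.124). Avp and Npy had a Pearson r of -0.757 (exact permutation p = 0.0155, adjusted p = 0.325) and a Spearman rho of -0.633 (exact permutation p = 0.0760, adjusted p = 0.744). This r was -0.546 without the 2 arrays farthest from the median of Avp and -0.793 within the 6 arrays with B4 numbers. The arrays of the 2 sexes lay mostly at opposite ends of it, since Avp was high in most males and Npy in most females. Wild-type male 2 lay with the females on both genes, with an Avp signal of 146.6 and an Npy signal of 823.0. Hcrt and Trh had a Pearson r of -0.704 (exact permutation p = 0.0348, adjusted p = 0.365) and a Spearman rho of -0.567 (exact permutation p = 0.121, adjusted p = 0.744). Without the 2 arrays farthest from the median this r was -0.609, and within the B4 arrays it was -0.955. Wild-type male 2 had the highest Hcrt signal of all arrays, 292.7, and the lowest Trh signal, 6.1.

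**Figure D4:**
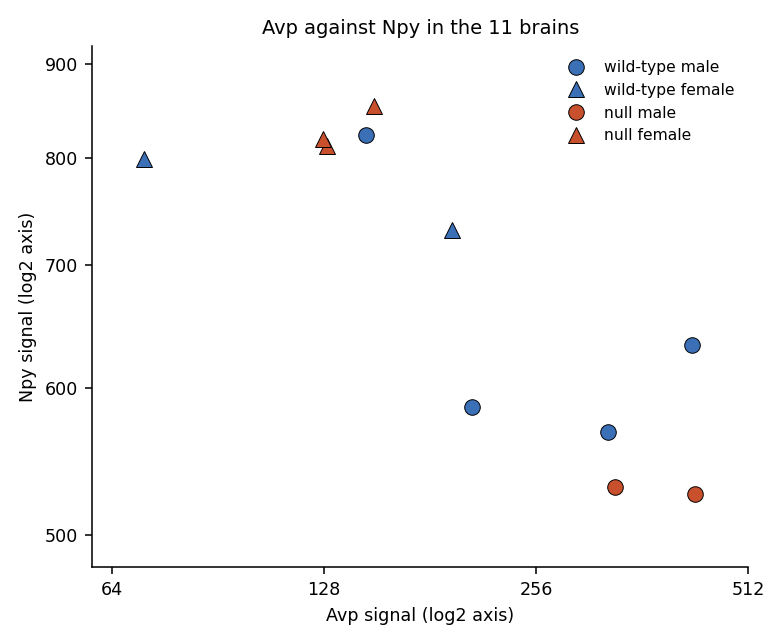
Avp signal against Npy signal on the 11 arrays, in arbitrary units on log axes, with genotype and sex marked. Most males lie at high Avp and low Npy, and wild-type male 2 lies among the females at 146.6 and 823.0.

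**Figure D5:**
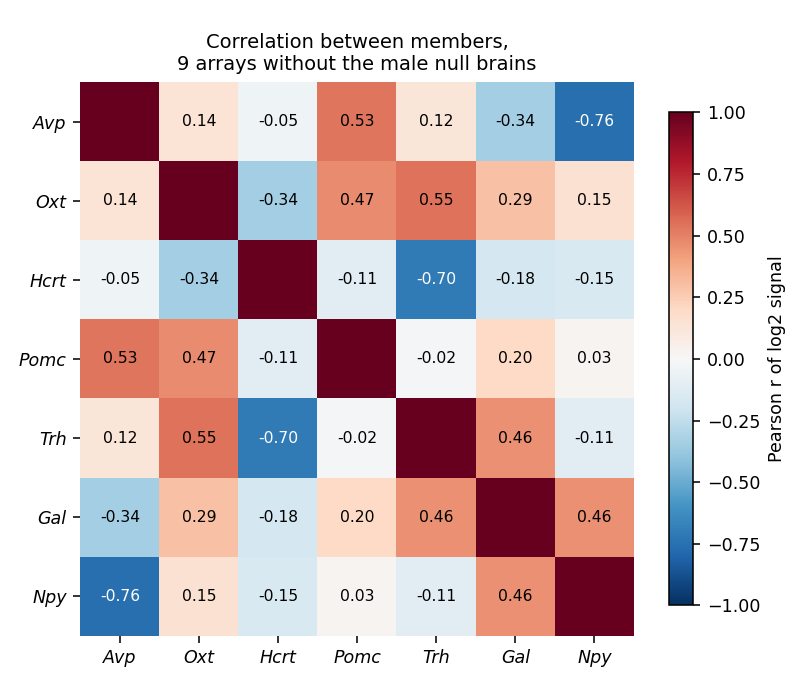
Pearson r of log2 signal for the 21 pairs of members over the 9 arrays that exclude the male null ones. The lowest value is -0.757 for Avp and Npy, and no pair passed after adjustment.

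The genes whose pattern over the same 9 arrays was most like that of a member are given as a description, with 5698 genes ranked. For Avp the highest Pearson r were 0.951 with Arhgap39, 0.929 with the aminopeptidase Rnpep and 0.922 with 6430706D22Rik. Over all 11 arrays these were 0.498, 0.933 and 0.808. For Oxt they were 0.977 with the glutathione transferase Gstm2, 0.945 with Dnajc13 and 0.938 with Lmbr1l, and over 11 arrays these were 0.403, 0.880 and -0.252. For Hcrt they were 0.877 with the receptor Notch3, 0.872 with Bola2 and 0.862 with Invs, and over 11 arrays 0.704, 0.901 and 0.761. For Pomc they were 0.942 with Tnpo2, 0.928 with Rgs3 and 0.916 with Actg2, and over 11 arrays these were -0.0235, -0.00818 and 0.276. For Trh they were 0.918 with Rnf10, 0.907 with Spdl1 and 0.900 with the dopamine receptor gene Drd4, and over 11 arrays 0.908, 0.851 and 0.749. For Gal they were 0.939 with the cadherin gene Cdh15, 0.858 with Ltc4s and 0.850 with Igbp1, and over 11 arrays 0.934, 0.841 and 0.741. For Npy they were 0.978 with Gstp1, 0.975 with Sec61a2 and 0.974 with the transketolase gene Tkt, and over 11 arrays 0.679, 0.907 and 0.175. These values are the top of a ranking over 9 arrays and carry no test.

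Most receptor genes of the members fell under the filter on low signal. Of 14 receptor genes on the array, 5 passed the filter (Galr1, Mc1r, Mc5r, Npy2r and Trhr), and limma called 0 of 5 in each of the 3 contrasts. At an unadjusted p under 0.05 there were 0 for genotype, 0 for sex and 1 for the interaction, which was Npy2r (0.83, SE 0.35, limma adjusted p = 0.126). Among all probe sets these shares were 23.1%, 12.4% and 30.9%. The median genotype difference of the 5 was 0.06, against 0.03 over all probe sets tested. Trhr, the receptor of Trh, had a genotype difference of -0.18 (SE 0.45, limma adjusted p = 0.833), and Galr1, a galanin receptor, of 0.21 (SE 0.31, limma adjusted p = 0.702). These were -0.34 and 0.10 without the male null arrays. The vasopressin receptor genes Avpr1a and Avpr2 read 5.5 to 37.4 and 10.4 to 34.3 over all arrays and were not tested. Npy1r, at 5.0 to 79.0, was not tested either.

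Among the genes that cut and pack the precursors, the 2 chromogranins had interactions of opposite sign. Of 13 such genes 11 were tested. Limma called 0 for genotype (2 higher and 3 lower at an unadjusted p under 0.05, against 23.1% of all probe sets) and 0 for sex (1 higher and 1 lower, against 12.4%). It called 2 for the interaction, against 15.9% of all probe sets. Chgb, a granule core protein, had an interaction of 1.02 (limma adjusted p = 0.00563), and Chga, its relative, of -0.92 (limma adjusted p = 0.0292). Their genotype differences were -0.46 for Chgb (limma adjusted p = 0.153) and 0.60 for Chga (limma adjusted p = 0.109). These were 0.071 and 0.11 without the male null arrays, in which Chgb had read 2500 and 2097 against 3558 to 4921 in the others. Their list had a median interaction of -0.21, against -0.02 over all probe sets tested. Its summed signal was 12383 and 13471 in the male null arrays and 14440 to 16787 in the other 9. This sum weighs bright probe sets most, such as those of Cpe (3646 to 5603) and Chgb.

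Among 16 other hypothalamic and brain peptide genes, 12 were tested. The interaction of 1 of them, Cort (1.10, limma adjusted p = 0.0149), passed, against 15.9% of all probe sets. Cort encodes cortistatin, a relative of somatostatin. For genotype limma called 0 of 12 (0 higher and 2 lower at an unadjusted p under 0.05, against 23.1%), with a median of -0.17 against 0.03 over all, and Cort at -0.47 and Vip at 0.47 were the extremes. Cort read 59.2 and 67.2 in the male null arrays against 110.2 to 155.6 elsewhere, and its genotype value was 0.11 without them. For sex limma called 0 of 12 (4 higher and 0 lower at an unadjusted p under 0.05, against 12.4%), with a median of 0.13 against -0.01. When the male null arrays were left out, limma called 0 of the 12 for sex and 0 had an unadjusted p under 0.05, against 8.88% of all probe sets. The largest sex value was Nmb, neuromedin B, at 0.64 (limma adjusted p = 0.344), which was 0.50 without those arrays. The list's summed signal was 5686 and 5982 in the male null arrays and 6927 to 7892 in the others.

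Of 16 hypothalamic transcription factor genes only 5 passed the filter, and limma called 0 of them in each contrast. Lhx1, a LIM homeodomain factor, had the largest sex value, -0.84 (unadjusted p = 0.00301, limma adjusted p = 0.261), and Pou3f1 the lowest genotype value, -0.61 (limma adjusted p = 0.266). With the male null arrays left out these were -0.56 and -1.32 (limma adjusted p = 0.618 and 0.999). At an unadjusted p under 0.05 there was 1 gene for genotype (Lhx1, 0.55), 1 for sex and 1 for the interaction. Of all probe sets 23.1%, 12.4% and 30.9% had such a p. Of 7 peptide-degrading enzyme genes, 4 were tested. Thop1, thimet oligopeptidase, had an interaction of -2.48 (limma adjusted p = 0.0170) and was the 1 of 4 that passed, against 15.9% of all probe sets. Limma called 0 for genotype (1 at an unadjusted p under 0.05, against 23.1% of all) and 0 for sex (0 at that p, against 12.4%). Thop1 read 81.3 and 115.4 in the male null arrays and 17.5 to 95.4 in the others.

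Markers of the pituitary, which also makes Pomc, were read beside it. Of 9 pituitary genes 5 were tested, and limma called 0 in each contrast. Unadjusted p was under 0.05 for 0 in genotype (23.1% of all probe sets), 1 in sex (12.4%) and 1 in the interaction (30.9%). The summed signal of the 9 pituitary genes was 274.6 to 393.9 in null and 285.8 to 442.6 in wild-type arrays. It was 274.6 to 362.6 in females and 287.9 to 442.6 in males. The signals of Tshb, Fshb and Hesx1, at 2.5 to 40.2, 2.5 to 17.7 and 0.7 to 11.2, reached down to the floor of 3.1, while Gh read 44.3 to 135.5. In the male null arrays the sum was 348.2 and 393.9. The part of pituitary tissue in the Pomc values was not tested. Prl had the lowest genotype value of the list, -0.74 (SE 0.51, limma adjusted p = 0.391).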

How the data were processed

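Whole-brain RNA of 11 mice was hybridised to Affymetrix arrays, 1 array per mouse. The values are intensities that the authors deposited after MAS5 processing, per the submitters' processing notes, with no version stated there. Every array had a 2% trimmed mean of about 150.1. Values were raised to a floor of 3.1 (the 10th percentile), taken to log2, and probe sets with a mean log2 under 4.69 (the 40th percentile) were not tested. Of 12488 probe sets, 66 controls were left out and 7453 tested. Models were fitted in R 4.3.3 with limma 3.58.1 (lmFit, eBayes with trend) on genotype and sex, with an interaction model beside them. P-values were adjusted by Benjamini-Hochberg over the 7453. An intensity is relative to its own probe set, so levels of different genes were not compared. The summed signals of the lists add different probe sets, so bright ones weigh most in them. Exact permutation tests (scipy 1.17.1, Python 3.11.15) were used for single quantities and correlations. Where a gene of a list had several probe sets, the brightest was used. Genes named beside the members were those past the threshold, the extremes of each list, receptors and the 3 genes most like each member. The tissue markers named were chosen after their values were seen. Alternatives covered normalization, floor, filter, variance model, covariates, animal-number letters and left-out mice. The members and lists were chosen with earlier results of these data known. Nothing in the labels says more about replicates than 1 mouse per array, and the number of arrays limits the precision. The methods were tested on simulated data. Symbols came from the platform annotation, in which 10855 probe sets had 1 gene, 396 several and 1237 none.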

Additional observations from a re-analysis of the deposited data

Results flagged for a closer look

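Of 40 groups of member values checked for an array far from the rest, 3 held one. Chance gives about 1 in 20 for a single group. The groups share arrays and 1 Pomc value was flagged more than once, so the count cannot be set against that rate. Pomc was at 12.8 in null male 1. Among the 5 null arrays the gap to the nearest value, 40.7, took up 0.733 of the group's range, and among the 6 male arrays it took up 0.658 of the range. The brighter probe set of Gal was at 95.3 in wild-type male 4, where the gap to the nearest of the 4 wild-type males, 84.8, took up 0.830 of the range. The cause was not tested for either gene.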

How the results depend on the processing

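The 7 members were recomputed under other settings, which with the dimmer Gal probe set gave 239 values, of which 213 kept their direction and their side of the threshold, 23 changed sign and 3 newly passed. Leaving out 1 mouse at a time gave 231 values, of which 218 kept both, 10 changed sign and 3 newly passed. The cause of the changes was not tested.

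Probe sets passing for genotype, 2 in the main model, were 1 with quantile normalization, with median centring and with no covariate, 0 with no filter, with age, with the Gapdh ratio and without the male null arrays, 26 in B4 mice, and 1 to 877 with 1 mouse left out. For sex, 0 became 3 with no filter and 10 in B4 mice, and was 0 to 30 with 1 mouse left out. For the interaction, 1187 became 0 with the Gapdh ratio and 644 in B4 mice, and was 461 to 1406 with 1 mouse left out. Members passing for the interaction, 0 in the main model, were 1 with quantile normalization (Hcrt, 0.91) and 2 with median centring (Hcrt, 0.92, and Oxt, 0.80). With 1 mouse left out 0 to 1 members passed in each contrast. With age as a covariate Trh alone had an unadjusted p under 0.05 for genotype, as did 847 of the 7453 probe sets. With the Gapdh ratio 0 members did, against 347 probe sets. Hcrt and Trh did with quantile normalization (1723 probe sets), median centring (2071) and the letters as a block (1397). In B4 mice Avp, Hcrt and Trh did, against 1838 probe sets. For the interaction in B4 mice Pomc and Npy did, against 1865. With all 11 arrays 1 pair of members passed in place of 0. Median centring moved the median of all probe sets to -0.15 for genotype, 0.17 for sex and 0.20 for the interaction, and turned the split of unadjusted calls from 364 higher and 562 lower to 1285 and 223 for sex, and from 1002 and 722 to 494 and 1577 for genotype.

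With the Gapdh ratio as a covariate, genotype values changed sign for Oxt (0.28), Pomc (0.21) and Npy (0.10), and without the male null arrays for Oxt (0.20), Pomc (0.22) and Npy (0.12). Npy was 0.019 with no covariate. Sex values changed sign without the male null arrays for Oxt (-0.026), Hcrt (-0.18), Pomc (-0.23), Trh (0.26) and Gal (0.023), with the Gapdh ratio for Hcrt (-0.054) and Gal (0.0229), and with no covariate for Trh (0.15) and Gal (0.083). Gal was 0.13 with quantile normalization, 0.17 with median centring and 0.035 in B4 mice. For the interaction, Avp was 0.33 in B4 mice, and Gal was 0.13, 0.14 and 0.085 with quantile normalization, median centring and the Gapdh ratio. With 1 mouse left out, values ran from -0.21 to 0.055 for the Oxt genotype difference. They ran from -0.0059 to 0.31 for the Hcrt sex difference and from -0.069 to 0.055 for the Gal sex difference. For the interaction they ran from -1.09 to 0.36 for Avp and from -0.20 to 0.074 for Gal. The values without the male null arrays for the dimmer Gal probe set and for genes other than the members were chosen after seeing the data. No paired analysis was possible because the labels give no replicate numbers that pair wild-type with null mice.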
